A study of Mus musculus with 36 samples.

Results

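DNA methylation was examined at 10 genes of the interleukin-7 (IL-7) receptor pathway, namely Il7r, the kinases Jak1 and Jak3, the transcription factors Stat3, Stat5a and Stat5b, and the feedback inhibitors Socs1, Socs2, Socs3 and Cish. Members were the CpG clusters, runs of listed cytosines at most 100 bp apart, that overlapped one of these gene bodies or the 2000 bp on either side in the GENCODE M21 annotation of GRCm38. This gave 11 of the 18009 clusters of the series, in 9 of the 10 genes, and Il7r had none. All 11 had cytosines with a value in every sample and were tested. A cluster's level is the mean over those cytosines alone, 1094 of the 1295 listed in the members, while its number of CG counts all that are listed. The share that entered was lowest in the Cish gene body (13 of 26), the downstream Socs2 cluster (42 of 77) and Stat5a (31 of 48). Widening the flanks to 5000 bp gave 14 clusters, still without Il7r.

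The samples were 36 reduced representation bisulfite sequencing (RRBS) libraries of B3, a mouse pre-B cell line, in a Methyl-seq time course. In the 18 samples of the Ikaros series, the cells carried a retroviral MSCV vector for HA-tagged wild-type Ikaros fused to the ERt2 hormone-binding domain, with IRES-GFP. In the 18 samples of the Control series they carried the empty vector with ERt2. Each series was sampled at 0, 2, 6, 12, 18 and 24 h with 3 replicates. By the labels, replicates 1 and 3 are batches 1 and 4. Replicate 2 is batch 2 at 0 h and batch 3 at the later times. Comparisons of 0 h with later times thus carry a batch difference in that replicate. The agent 4-hydroxytamoxifen (4-OHT), which moves the fusion protein into the nucleus, was given to both series, so the Control series is the background for 4-OHT. The labels name 0.5 µM 4-OHT at every time point, whereas the methods describe the 0 h cells as untreated. All samples come from 1 transduced line per series, so the series differ by vector and by the history of the line, which cannot be told apart. A level is the average over the cells of a sample, and a change in all cells and a change in some of them cannot be told apart either.

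IL-7 is the main growth and survival signal of early B-lineage cells. Binding to its receptor, made of IL-7Rα (the product of Il7r) and the common gamma chain, activates JAK1 and JAK3, which phosphorylate STAT5A and STAT5B. STAT5 in turn induces SOCS proteins and CIS (the product of Cish), which shut the receptor signal off. CpG-rich promoters of such genes are usually unmethylated, and gene bodies are usually methylated.

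RRBS starts from MspI fragments, cut at CCGG, and the clusters also depend on the authors' filter on the number and coverage of CpG sites. RefSeq promoter windows of GRCm38.p6, 250 bases before to 50 after the transcription start, were found for 9 of the 10 genes (11 windows). Of all 32851 such windows, 52.8% held CCGG (the site reads the same on both strands), and 8 of the 11 windows of these genes did. The window of Il7r held 1 CG and no CCGG, against a median of 7 CG over all windows, and 14.1% of all windows had as few CG. CCGG in the window did not go along with a promoter cluster in every gene, since the Cish window held none and Cish had one, while the Jak3 window held 1 and Jak3 had none. The part of the sequence or of the filter in the lack of an Il7r cluster was not tested. The windows with the most CG were those of Stat5b with 50, Socs3 with 31 and Jak1 with 29. The stretch before the RefSeq start of Il7r (chr15:9529877-9530040, minus strand, an intron of the longer transcript Il7r-203 in GENCODE) and the 250 bases upstream of Socs1 (chr16:10785537-10785786, minus strand) show this contrast, with each CG in capitals.
Il7r before the RefSeq start: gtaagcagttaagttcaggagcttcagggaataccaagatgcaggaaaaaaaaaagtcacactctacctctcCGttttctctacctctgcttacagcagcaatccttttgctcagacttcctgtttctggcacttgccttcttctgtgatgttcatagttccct
Socs1 upstream: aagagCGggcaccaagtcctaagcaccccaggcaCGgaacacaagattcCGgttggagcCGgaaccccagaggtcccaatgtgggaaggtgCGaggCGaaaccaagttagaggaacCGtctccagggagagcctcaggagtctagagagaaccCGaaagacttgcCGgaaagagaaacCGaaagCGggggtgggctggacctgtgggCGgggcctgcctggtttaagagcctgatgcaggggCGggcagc
The Socs1 stretch held 13 CG and 3 CCGG, and the Il7r stretch held 1 CG and no CCGG. The cluster nearest to Il7r lay 364935 bp away, so the receptor gene has no value here.

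The stretches where the series differed at single cytosines (below) are also shown. The first is the 200 bases of the Socs3 intron next to exon 1 (chr11:117968675-117968874, minus strand), the second is the part of the Socs1 coding sequence that holds the differing cytosines (chr16:10784267-10784425, minus strand), and the third is the surroundings of 1 CG in the coding sequence of Cish (chr9:107300431-107300460, plus strand). CG is in capitals.
Socs3 intron: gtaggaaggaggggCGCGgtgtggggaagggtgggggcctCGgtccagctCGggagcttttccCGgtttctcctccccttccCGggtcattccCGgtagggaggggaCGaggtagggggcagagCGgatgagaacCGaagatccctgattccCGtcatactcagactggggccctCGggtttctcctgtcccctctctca
Socs1 coding sequence: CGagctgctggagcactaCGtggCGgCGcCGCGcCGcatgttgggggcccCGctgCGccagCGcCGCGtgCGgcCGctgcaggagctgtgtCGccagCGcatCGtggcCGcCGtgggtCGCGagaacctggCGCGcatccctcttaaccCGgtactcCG
Cish CpG: gtacattcctagttCGagacagcacccacc
They hold 12, 25 and 1 CG. The Socs3 and Socs1 stretches are CpG-rich, while the Cish CG stands alone in its 30 bases.

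The deposited tables give a smoothed level for each cytosine and no read counts, so the depth behind a value is unknown and its precision is given by the spread between samples. As indirect signs of coverage, the share of cytosines without a value was 0.139% to 3.18% in the Ikaros series, highest in Ikaros 24 h replicate 2, and 0.110% to 11.6% in the Control series, highest in Control 0 h replicate 1. The share of values lying at 0 or 1 exactly moved with the series, with a mean of 36.2% ± 7.63 (SD, n = 18) over the Ikaros samples, up to 59.1% in Ikaros 24 h replicate 2, and of 27.9% ± 4.89 over the Control samples. Of 16 lineage marker genes, 5 had a promoter cluster. The clusters of the B-lineage genes Pax5, Ebf1 and Vpreb1 were at 1.03% or lower in the mean of either series, that of the T-cell kinase gene Lck was at 79.8% and 79.3% in the Ikaros and Control series, and that of the erythroid gene Klf1 was at 1.37% and 1.58%. Methylation of a promoter is not its expression, so these levels describe the label and do not check it.

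The promoters of the pathway were nearly free of methylation in both series. Of 9 promoter clusters, those within 1000 bp of a transcription start, 8 had a mean below 2% in each series. At a limit of 5% the members' count was the same, 8 of 9. Genome-wide, 57.0% of the 13134 promoter clusters of protein-coding genes were below 5%, with a median of 1.16%. The exception was Socs3, whose cluster ran from an unmethylated promoter into a methylated second exon. The clusters inside Jak3 and Cish had a mean over 80% in each series. For comparison, the 2895 clusters away from any transcription start had a median of 94.8%.

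**Figure D1:**
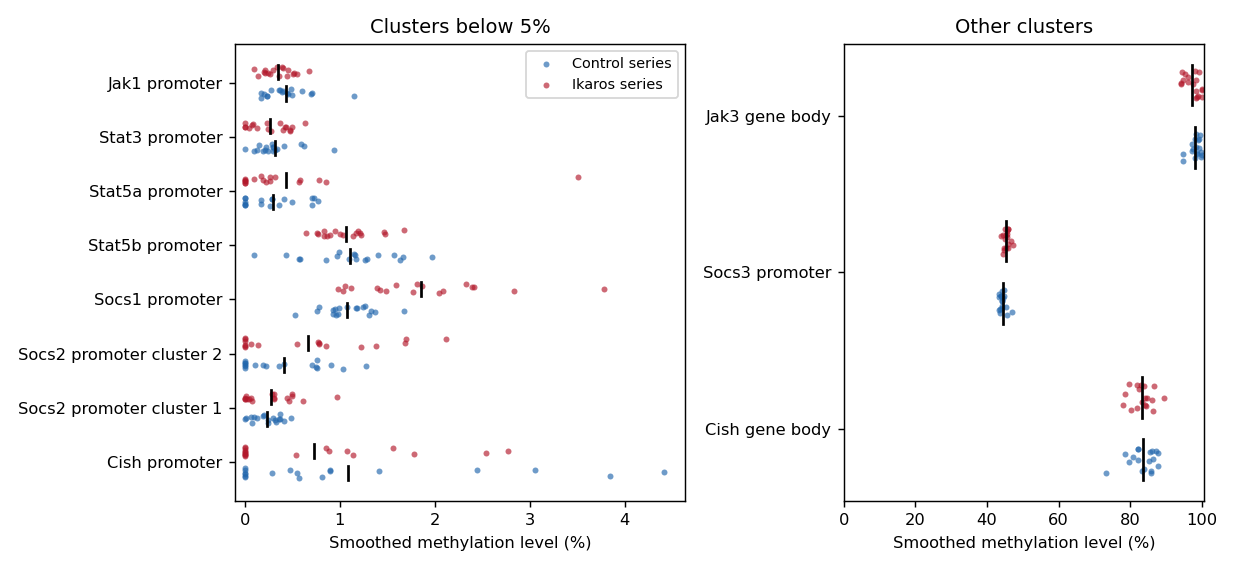
Smoothed methylation level in percent (horizontal axis) of the 11 member clusters in the 36 samples. Each point is 1 sample, red for the Ikaros and blue for the Control series, and black bars are series means. The left panel holds the clusters with means below 5%, and the right panel runs from 0 to 100%. In the Socs1 row 10 Ikaros samples lie above the highest Control value of 1.67%, up to 3.79%, and in the Stat5a row a single Ikaros sample lies at 3.51%.

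Of the kinases, Jak1, which binds the IL-7Rα chain, had a promoter cluster (chr4:101264601-101265428, first exon, intron and upstream, 75 CG). Its level ran from 0.0955% through a median of 0.353% to 0.683% over the Ikaros samples. Over the Control samples it ran from 0.168% through 0.399% to 1.15%. The ranges overlapped, and the highest values were those of Control samples. The mean difference, Ikaros minus Control, was -0.0854 percentage points (95% interval -0.238 to 0.0672). Jak3, the partner kinase on the common gamma chain, had no promoter cluster and 1 gene-body cluster (chr8:71679797-71679972, coding and noncoding exon, 12 CG). Over the Ikaros samples its lowest, median and highest levels were 94.1%, 98.2% and 100%. Over the Control samples they were 94.6%, 98.5% and 100%. The Ikaros minus Control difference was -0.816 percentage points (95% interval -2.08 to 0.445).

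Among the transcription factors, the Stat3 promoter cluster (chr11:100938947-100940097, 56 CG) had a median of 0.264% and a highest value of 0.640% in the Ikaros series. The Control series had a median of 0.292% and a highest value of 0.938%. At least 1 sample of either series was at 0. Stat5a and Stat5b, neighbours on chromosome 11 whose products carry most of the IL-7 signal in B-cell precursors, each had 1 cluster. The Stat5a cluster (chr11:100860169-100860527, 25 CG) had a median of 0.211% in the Ikaros and 0.282% in the Control series. Its single high sample was Ikaros 24 h replicate 2 at 3.51%, the library with the most levels at exactly 0 or 1, and every Control sample was at 0.769% or lower. The Stat5b cluster (chr11:100850297-100851072, 86 CG) ranged from 0.642% to 1.68% in the Ikaros series and from 0.0956% to 1.97% in the Control series. Within this cluster the bases upstream of the transcript were at 2.36% ± 0.656 (SD, n = 18) and 2.48% ± 1.10 in the Ikaros and Control series. The first exon was at 0.242% ± 0.260 and 0.212% ± 0.160.

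Among the inhibitors, Socs2, which also curbs growth hormone signalling, had a pair of promoter clusters at its alternative starts. The upstream one (chr10:95415626-95416955, 109 CG, shared with 5730420D15Rik) had a mean of 0.274% ± 0.273 in the Ikaros and 0.236% ± 0.143 in the Control series. The downstream one (chr10:95414394-95415189, 47 CG, 42 of 77 cytosines) had 0.670% ± 0.705 and 0.418% ± 0.422. Both pairs of ranges overlapped. Cish, the gene of the STAT5-induced inhibitor CIS, had a promoter cluster in its first exon (chr9:107296799-107296912, 10 CG, within 2000 bp of Gm17040 too). It was at 0.732% ± 0.921 in the Ikaros and 1.09% ± 1.40 in the Control series, with single samples up to 2.77% and 4.41%. Its gene-body cluster (chr9:107300445-107300835, 19 CG, also near Gm17041), whose level rests on 13 of 26 cytosines, ranged from 78.0% to 89.5% in the Ikaros and from 73.2% to 87.6% in the Control series.

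The question of the design was whether methylation differed between the series and changed after induction. For the series difference, the mean M-value of each cluster, log2 of methylated over unmethylated, was fitted with limma over all 16734 clusters with complete values, with the time point as a factor. Of the 11 member clusters 1 passed at an adjusted p under 0.05, that of Socs1, while 4.84% of all clusters passed (810, of which 621 were higher in the Ikaros series). The members' count is thus close to the background. Of the 11, 5 were higher in the Ikaros series, with a median M-value difference of -0.01, against 10650 of all 16734 clusters and a median of 0.03. The signs of Jak1, Stat3, Stat5a, Stat5b and the Cish gene body, whose differences did not pass, changed under at least 1 alternative.

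**Figure D2:**
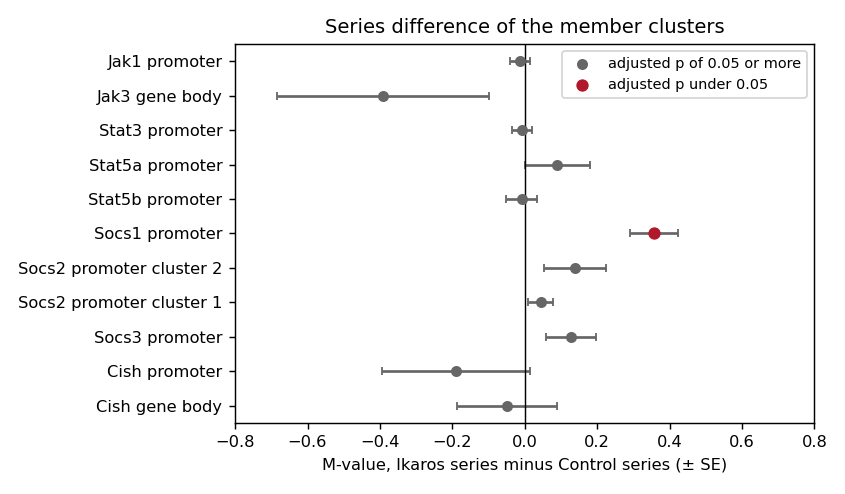
Difference in mean M-value, Ikaros minus Control series (horizontal axis), of the 11 member clusters. Points are limma estimates from 36 samples, bars are ± 1 SE, and red marks an adjusted p under 0.05. Socs1 stands at 0.36, and the wide bar of Jak3 belongs to a cluster close to full methylation.

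Socs1 encodes an inhibitor that binds the JAK kinases directly. Its cluster (chr16:10784267-10786244, minus strand, 155 CG, within 2000 bp of Tnp2 too) spans the promoter, exon 1, the intron and most of the coding sequence in exon 2. The level ran from 0.986% through a median of 1.79% to 3.79% over the 18 Ikaros samples. It ran from 0.531% through 1.03% to 1.67% over the 18 Control samples. The ranges overlapped, with 10 Ikaros samples above every Control sample and 17 above the Control median. The Ikaros series was higher by 0.778 percentage points (95% interval 0.430 to 1.12), or 0.36 ± 0.07 (SE) in M-value (limma, adjusted p = 0.000618, rank 215 of 16734).

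Within replicate number, which also separates batches 1 and 4, the difference was 0.871, 0.931 and 0.531 percentage points for replicates 1, 2 and 3. By time point it was 0.634 at 0 h, 0.666 at 2 h, 0.572 at 6 h, 0.107 at 12 h, 1.52 at 18 h and 1.16 at 24 h, smallest at 12 h, where the series means were 1.203% and 1.096%. With the batch as a factor the adjusted p was 0.000652. The highest sample was again Ikaros 24 h replicate 2, and without it the M-value difference was 0.34 (adjusted p = 0.00110). Without replicate 1 of every condition the call was lost (difference 0.31, adjusted p = 0.0556). Shares of empty values and of levels at 0 or 1 as covariates left it at 0.36 (adjusted p = 0.0429).

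The Socs1 difference lay in the coding sequence. There, over 65 CG, the mean was 3.59% ± 1.58 (SD, n = 18) in the Ikaros and 1.92% ± 0.557 in the Control series, and 11 Ikaros samples were above every Control sample. In the untranslated exon parts it was 0.678% ± 0.446 and 0.466% ± 0.383, and in the intron 0.344% ± 0.368 and 0.219% ± 0.207. Upstream of the start, the promoter proper, it was 0.418% ± 0.180 in the Ikaros and 0.506% ± 0.224 in the Control series. These parts follow the annotation and were compared as a description, without a test.

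**Figure D3:**
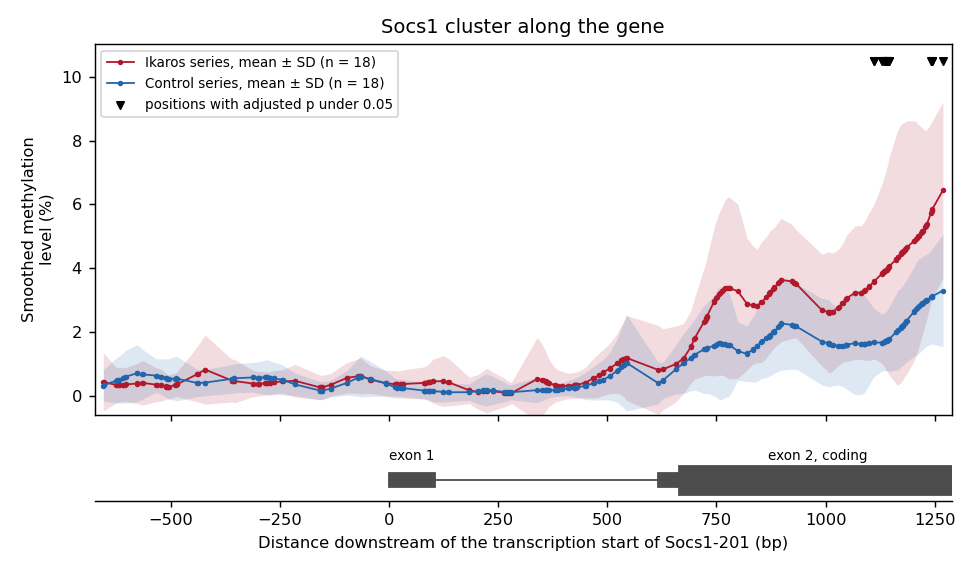
Smoothed methylation level in percent (vertical axis) along the Socs1 cluster, by distance in bp from the transcription start of Socs1-201, whose exons are drawn below. Lines are series means with bands of ± 1 SD (n = 18 each), and triangles mark cytosines with an adjusted p under 0.05. Both series are near 0 up to the coding sequence, and the Ikaros series climbs to 6.44% at the last cytosine against 3.30% in the Control series.

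To see where within a cluster the series differed, the same limma model was fitted to every cytosine with a value in all samples, 895908 in number. This fit was added after the data were seen, and smoothing ties the values of neighbours, so their number is no measure of evidence. At an adjusted p under 0.05, 31 of the 1094 member cytosines passed, while 2.47% of all cytosines did. The members' share is again near the background. The 31 lay in 3 clusters, namely 19 in Socs1, 10 in Socs3 and 2 in the Cish gene body. The Socs1 count depended on the setting. It was 43 without Ikaros 24 h replicate 3 (55 members in all), 29 without Control 24 h replicate 3 (41 in all), 5 with levels (17 in all), and 0 with the coverage covariates (8 in all, each in Socs3). Without replicates 1, 2 and 3 in turn, Socs1 kept 2, 0 and 9 of its cytosines and Socs3 kept 8, 10 and 5.

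In Socs1 the 19 cytosines, in 10 CG, lay between 1111 and 1269 bp downstream of the transcription start, in the coding stretch printed above. All were higher in the Ikaros series, by 1.91 to 3.14 percentage points. At the one with the smallest p (chr16:10784407) the level ran from 1.65% through a median of 2.92% to 13.6% in the Ikaros and from 0 through 1.41% to 3.45% in the Control series. The highest sample was once more Ikaros 24 h replicate 2, and 7 Ikaros samples were above every Control sample. The M-value difference was 1.04 ± 0.24 (SE, adjusted p = 0.00971). It did not pass on the scale of levels (2.16 percentage points, adjusted p = 0.0918) or with the coverage covariates (1.03 in M-value, adjusted p = 0.233). Nor did it pass without replicate 1 (adjusted p = 0.435) or replicate 2 (adjusted p = 0.0929). With each sample or replicate number left out, the M-value difference lay between 0.78 and 1.34.

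Socs3, the inhibitor best known for acting on STAT3 signals of the gp130 receptors, held a boundary between low and high methylation. Its cluster (chr11:117967795-117969565, minus strand, 138 CG) was methylated at 96.8% ± 1.53 (SD, n = 18) in the coding sequence in the Ikaros and at 96.4% ± 2.61 in the Control series. In the noncoding first exon of Socs3-203, upstream of the start of Socs3-201, it was at 0.717% ± 0.675 and 0.851% ± 0.775. Between them the level declined through the intron and exon 1. As a cluster mean it was 45.4% ± 0.839 and 44.3% ± 0.935, and the M-value difference of 0.13 did not pass (adjusted p = 0.402). It passed on the scale of levels (1.06 percentage points, 95% interval 0.457 to 1.67, adjusted p = 0.0267) and with all cytosines that had a value (M-value difference 0.24, adjusted p = 0.0481).

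The series differed on the slope of this boundary. The 10 passing cytosines, in 6 CG, lay 326 to 437 bp downstream of the transcription start in the intron stretch printed above, and the Ikaros series was higher at each by 10.8 to 16.4 percentage points. At chr11:117968767, chosen after its values were seen, it had 66.7% ± 7.30 and the Control series 50.3% ± 11.7. At chr11:117968823, the one with the smallest p, the level ran from 34.9% through a median of 43.5% to 60.6% in the Ikaros series. In the Control series it ran from 16.2% through 32.3% to 47.4%. The ranges overlapped, with 13 Control samples below every Ikaros sample. The difference was 14.8 percentage points (95% interval 9.58 to 19.9), or 0.94 ± 0.16 (SE) in M-value (adjusted p = 0.000433).

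The difference at this Socs3 cytosine held on the scale of levels (adjusted p = 0.000355) and with the coverage covariates (difference 1.19, adjusted p = 0.00358). With each sample or replicate number left out it was 0.88 to 1.04 in M-value, with an adjusted p of at most 0.0473. Its means in the Ikaros and Control series were 48.7% and 32.5% in replicate 1, 42.4% and 31.0% in replicate 2, and 46.4% and 29.7% in replicate 3. On either side of the slope, in the coding sequence and upstream of exon 1, no cytosine passed.

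**Figure D4:**
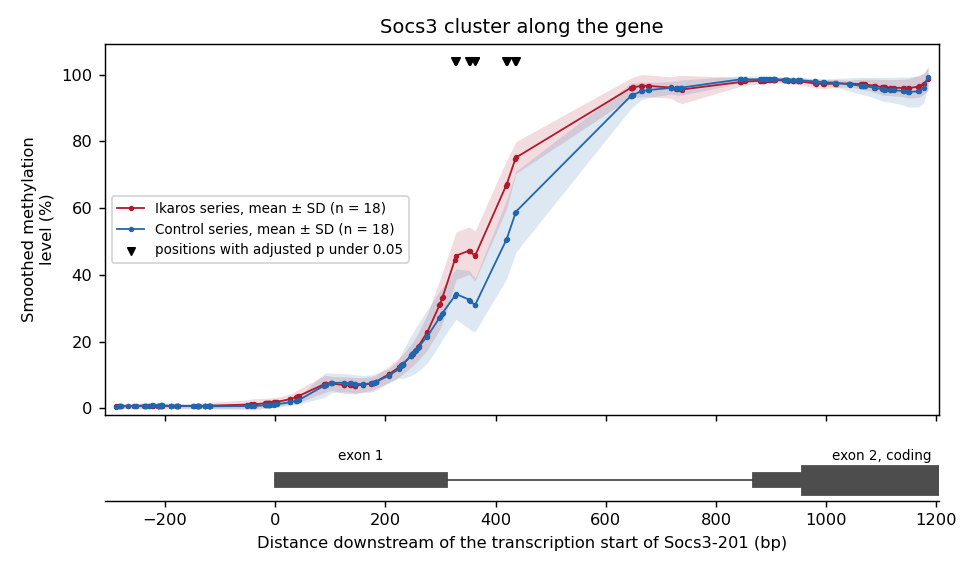
Smoothed methylation level in percent (vertical axis) along the Socs3 cluster, by distance in bp from the transcription start of Socs3-201, whose exons are drawn below. Lines are series means with bands of ± 1 SD (n = 18 each), and triangles mark cytosines with an adjusted p under 0.05. Both curves rise from near 0 to over 95%, and between 326 and 437 bp the Ikaros curve lies above the Control curve.

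In the Cish gene body, whose cluster mean did not differ (-0.249 percentage points, 95% interval -2.50 to 2.00), 1 CG at the edge of the cluster did (chr9:107300445-107300446). On its reverse-strand cytosine the level ran from 62.2% through a median of 84.1% to 92.1% in the Ikaros series. In the Control series it ran from 85.0% through 94.1% to 97.2%. The ranges overlapped, with 12 Ikaros samples below every Control sample. The lowest value was that of Ikaros 24 h replicate 2. The difference was -9.92 percentage points (95% interval -13.7 to -6.10), or -1.45 ± 0.23 (SE) in M-value (adjusted p = 0.000152). It did not pass with the coverage covariates (-1.08, adjusted p = 0.127), and with each sample or replicate number left out it was -1.54 to -1.34 with an adjusted p of at most 0.0307. The next listed cytosine, at chr9:107300497, was at 91.2% ± 2.65 and 91.6% ± 2.38.

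Another cytosine of the Cish gene body stood apart from its neighbours in both series. At chr9:107300640, in the coding sequence of Cish-201, the level was 34.7% ± 10.2 in the Ikaros and 36.3% ± 9.62 in the Control series, while chr9:107300572 was at 81.8% ± 5.35 and 80.8% ± 5.15. This cytosine was chosen after its values were seen. It is the first CG in capitals in the 30 bases shown here (chr9:107300626-107300655, plus strand), and it lies within CCGG, the MspI site.
Cish low position: gtgcagctgacaccCGgagCGacagccCGg
The level ranged from 18.3% to 52.5% in the Ikaros and from 23.2% to 58.7% in the Control series, and the series did not separate (adjusted p = 0.863).

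For the time course, no member cluster passed in any test. At 0 h, the contrast of the series passed in none of the 11 (no unadjusted p under 0.05), with 0.215% of all clusters called. The Socs1 cluster was higher in the Ikaros series at 0 h by 0.634 percentage points (95% interval -0.188 to 1.46, adjusted p = 0.569). Whether the series difference changed from 0 h to 2 to 24 h was tested directly, with no member past and 0.00598% of all clusters called. For Socs1 that change was 0.172 percentage points (95% interval -0.728 to 1.07), an interval wider than the series difference itself. For single cytosines, 0 of the members passed at 0 h (0.0904% of all called) and 0 in the change (0.00915% of all called).

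Change over time within a series called 0% of clusters in the Ikaros series (873 at an unadjusted p under 0.05) and 0.012% in the Control series, and a different course between them called 0% (857 unadjusted). No member passed at an adjusted p under 0.05. The smallest member p was that of the Cish gene body in the Ikaros series, unadjusted p = 0.0187 and adjusted p = 0.923 by limma. Its mean level was 83.6% at 0 h, 79.97% at 2 h, 80.9% at 6 h, 83.8% at 12 h, 86.8% at 18 h and 84.3% at 24 h. No other member had an unadjusted p under 0.05 in any of these tests.

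The values by time point of the stretches where the series differed are given as a description, since they were not tested for change within a series. The Socs1 coding sequence in the Ikaros series was at 2.97% ± 0.986 (SD, n = 3) at 0 h, 3.15% ± 1.29 at 2 h, 3.38% ± 0.464 at 6 h, 2.16% ± 0.775 at 12 h, 4.93% ± 0.500 at 18 h and 4.96% ± 2.84 at 24 h. In the Control series the 6 means lay between 1.68% at 0 h and 2.41% at 24 h. All 3 Ikaros samples were above the Control samples at 6 h and at 18 h, and the groups overlapped at the other time points. The 24 h mean rests on 1 sample at 8.22%, and the other two were at 3.01% and 3.66%.

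At the Socs3 cytosine (chr11:117968823) the Ikaros means lay between 40.6% at 0 h and 50.4% at 12 h. The Control means were 35.1% ± 1.96 (SD, n = 3) at 0 h, 37.6% ± 8.47 at 2 h, 20.4% ± 4.70 at 6 h, 26.9% ± 4.86 at 12 h, 29.1% ± 5.60 at 18 h and 37.4% ± 6.47 at 24 h. At 0 h the series differed by 5.48 percentage points (95% interval -6.09 to 17.0), and the change from 0 h was 11.1 (95% interval -1.54 to 23.8). The widest gap was at 6 h, where the Control samples were low. At the Cish cytosine the difference at 0 h was -12.2 percentage points (95% interval -22.3 to -2.09, not past the threshold over all cytosines), and the change from 0 h was 2.71 (95% interval -8.33 to 13.7). Both cytosines were chosen for a series difference that includes the 0 h samples. Their intervals at 0 h are therefore not independent of that choice.

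**Figure D5:**
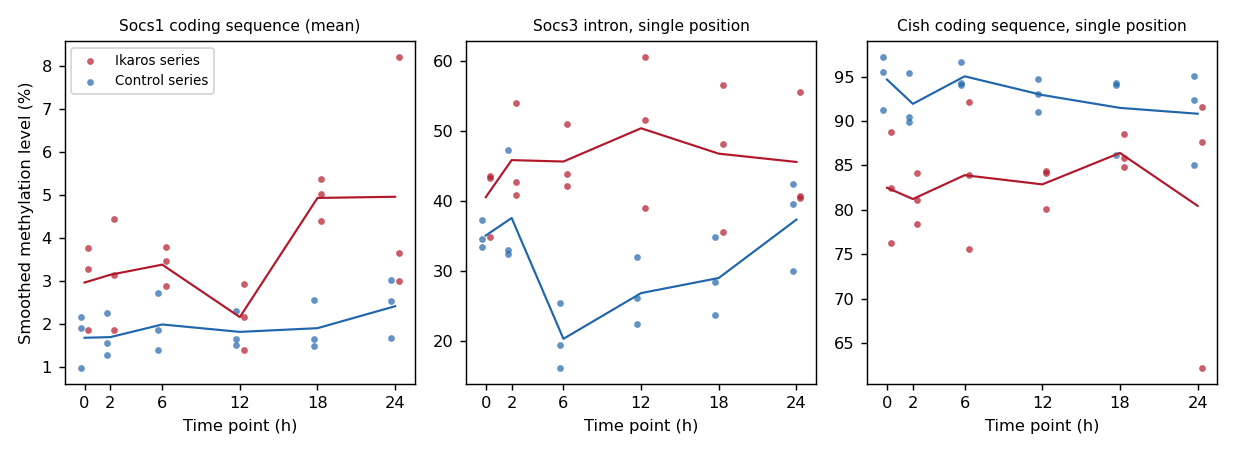
Smoothed methylation level in percent (vertical axes, which do not start at 0) by time point in h (horizontal axes) for the mean of the Socs1 coding sequence, the Socs3 intron cytosine and the Cish coding cytosine. Points are samples, 3 per series and time point, and lines join the means, red for the Ikaros and blue for the Control series. In the Socs3 panel the Control mean is lowest at 6 h, and in the Cish panel the Ikaros mean is below the Control mean at each time point.

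The wider pathway was taken from a list of 43 other genes, of which 29 had a cluster (49 clusters, 42 of them testable). It comprised ligands, receptor chains, the kinases Jak2 and Tyk2, further STAT and SOCS genes, other inhibitors, and targets such as Bcl2 and Mcl1. Of its 36 testable promoter clusters 30 were below 5%. For the series difference 1 cluster passed and 5 had an unadjusted p under 0.05, and 33 of the 42 were higher in the Ikaros series with a median M-value difference of 0.06. Over all 16734 clusters, 4.84% passed, 2484 had an unadjusted p under 0.05 and 10650 were higher, so the list gave no more calls than the background. The passing one was that of Ptpn1, a tyrosine phosphatase that acts on JAK kinases, at 9.26% ± 0.528 (SD, n = 18) in the Ikaros and 8.68% ± 0.398 in the Control series (adjusted p = 0.0467). This call depended on the setting, since 0 clusters of the list passed with averaged strands, with the coverage covariates or with the robust variance. None of the list passed at 0 h, in the change from 0 h or in the time tests.

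The promoter clusters whose M-values followed Socs1 most closely over the 36 samples, among 13134, were those of Ephb6 (Pearson r = 0.722), Atxn7l3 (0.706) and Morn3 (0.705). Their levels were 74.1% and 41.7%, 2.20% and 0.773%, and 70.3% and 53.0% in the Ikaros and Control series. Socs1 was picked for its series difference and the correlation spans both series, so other clusters that differ by series are favoured. The samples also share library and coverage across clusters, so these correlations are a description.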

How the data were processed

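Methylation was measured by RRBS in 36 B3 samples. The authors mapped the reads to GRCm38 (the submitters' processing notes name Bismark 0.10.1), limited the coverage of highly covered sites, and smoothed levels within CpG clusters of at least 20 sites with BiSeq (bandwidth 80 bp). They deposited the smoothed level of each cytosine as a fraction from 0 to 1, printed here as percent. A second deposited table holds M-values (log2 scale), for which the authors limited levels to 0.01 to 0.99. Because smoothing borrows from neighbours, sharp edges are blurred and adjacent values are not independent. Coverage is unknown.

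Groups, replicate numbers and batches came from the labels. Replicates are batches of 1 line per series, so p-values measure the spread between these samples. A cluster's value was the mean M-value, or level, over its cytosines with a value in all 36 samples. Levels are limma estimates only where an interval is given, and otherwise plain means. All clusters were fitted with limma 3.58.1 (R 4.3.3, lmFit and eBayes, two-sided, Benjamini-Hochberg over all features, threshold 0.05), the code being tested on simulated data first. Tables were handled in Python 3.11.15 with pandas 2.3.3. Named were all 10 genes with each cluster, the pathway genes that passed a test, the promoter clusters most like the member cluster of smallest p, and, for single cytosines, the one of smallest p per gene, with a few others chosen after their values were seen. The members and lists were chosen with earlier results of these data known. Alternatives were levels, all cytosines, strands averaged, replicate number or batch as a factor, coverage proxies, another variance model, other windows, and samples left out.

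By the labels, replicate numbers 1 and 3 are batches shared by both series at every time point, so the design pairs these samples. The main model left this pairing out. Over all clusters, samples of equal number shared no common deviation on average, which does not exclude batch effects at single clusters. Deviations from the condition means correlated by -0.000326 on average over 198 pairs of equal number and by 0.000183 over 396 pairs of different number. Windows of 0 bp around gene bodies gave the same 11 clusters, and promoter windows of 500 bp and 2000 bp gave 9 and 11 promoter clusters.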

Additional observations from a re-analysis of the deposited data

How the results depend on the processing

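The Socs1 difference kept its direction in every alternative run and its call in all but the one without replicate 1. Its M-value difference lay between 0.31 and 0.39 with samples or replicate numbers left out. Socs3 as a cluster passed with levels (1.06 percentage points) and with all cytosines that had a value (0.24 in M-value). The Socs1 cytosine lost its call with levels and with the coverage covariates, and the Cish cytosine with the covariates. No difference that passed reversed. Uncalled M-value differences near 0 changed sign, that of the Cish gene body from -0.05 to 0.06 with averaged strands. With samples or replicate numbers left out, they crossed 0 for Jak1 (-0.04 to 0.0055), Stat3 (-0.03 to 0.0093), Stat5a (-0.00028 to 0.14), Stat5b (-0.04 to 0.02) and the Cish gene body (-0.11 to 0.02). The cause of these shifts was not tested.

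Counts over all clusters moved more. With the coverage covariates, 335 clusters passed for the series difference, 7 at 0 h and 8329 cytosines in the single-cytosine fit. At 0 h, 71 clusters passed with levels and 66 without 3 libraries (Control 24 h replicate 2, Control 0 h replicate 1, Ikaros 24 h replicate 2). The change from 0 h gave 0 clusters with levels, all cytosines, averaged strands, batch or the robust variance, and 3 without the 3 libraries. Change over time in the Ikaros series gave 1 without the 3 libraries. In the Control series it gave 0 with levels, averaged strands or covariates, 1 with all cytosines or without the 3 libraries, and 6 with batch. A different course gave 1 with the robust variance. With samples or replicate numbers left out, the ranges were 368 to 863 clusters for the series difference, 0 to 70 at 0 h, 0 to 12 for the change from 0 h, 0 to 5 for time in the Ikaros series, 0 to 12 in the Control series, 0 to 14 for the course, and 8610 to 23595 cytosines.

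As a replicate block, the replicate number gave 820 clusters for the series difference against 810 without it, and 39 against 36 at 0 h. It changed no call on a member. A coverage minimum could not be tried, since the tables hold no coverage. Differences between levels beyond the limits of 0.01 and 0.99 are lost in M-values. Inside these limits, M-values stretch differences at low and high levels. The 2.16 percentage points at the Socs1 cytosine were 1.04 in M-value, and the 14.8 at the Socs3 cytosine were 0.94.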
